A study of Mus musculus with 4 samples.

Results

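The genes described here are the collagen, laminin and integrin genes of the mouse, read by single-nucleus RNA sequencing (snRNA-seq) in the forebrain after a stroke. Every row of the deposited gene tables was taken whose symbol has the form of a collagen chain (Col, a number, a and a number), a laminin chain (Lam, a, b or c, and a number) or an integrin (Itga or Itgb followed by digits or letters), which gave 87 of 46983 rows. They fall into 44 collagens, 11 laminins, 28 integrin rows under 27 symbols, and 4 rows (Itgb1bp1, Itgb1bp2, Itgb3bp and Itgbl1) that carry an integrin name but encode no integrin chain and are described apart. No measured value was used in the choice. The tissue came from C57Black/6 male mice of 3 months. One library was made from sham control mice, and 1 library each from mice at days 1, 3 and 7 after permanent middle cerebral artery occlusion (MCAO), in which the artery is coagulated and divided so that blood flow does not return and a small infarct forms in the parietal cortex. Nuclei of 3 forebrain hemispheres went into each library, so tissue outside the infarct was read together with the lesion. With 1 library per group there is no replicate error in these data, so no test between groups was run and no p-value is given, and the same sham control library is the reference for all 3 days. The part of the forebrain that served as sham tissue is uncertain, since the surgical protocol in the labels names intact cortex as the control and the design text names hemispheres of the forebrain. In the sham control library 331 nuclei were named below after striatal projection neurons, 14 after ependymal cells and 6 after choroid plexus. Its tissue was therefore not cortex alone, and its full extent stays uncertain. The numbers of nuclei that the study lists for days 3 and 7 match the deposited libraries only when those 2 labels are exchanged, so the groups are called here the libraries labelled day 3 and day 7, and no direction in time is drawn from them.

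Collagens are trimers of alpha chains that build the extracellular matrix. Types I, III and V form fibrils in connective tissue such as the meninges and the sheaths of large vessels, and type IV forms the sheet of the basement membrane. Laminins are trimers of an alpha, a beta and a gamma chain, and they form the second network of the basement membrane, which in the brain surrounds every vessel and lies between endothelial cells, pericytes and the end-feet of astrocytes. Integrins are pairs of an alpha and a beta chain in the cell membrane that bind these matrix proteins, or, in the case of the chains paired with Itgb2, ligands on other cells. After a stroke the basement membrane is partly degraded, and fibroblasts of the meninges and vessels lay down fibrous matrix.

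Type IV collagen genes lie in pairs, head to head, and are read in opposite directions, and the levels of such pairs over the cell classes are given below, so the promoter windows of 2 pairs are shown. Those of the fibrillar genes Col1a2 and Col3a1 are added, 2 of the 6 members called higher in fibroblast-like nuclei at day 3. Each window runs from 250 bases before to 50 bases after the RefSeq start on GRCm38.p6, and 3 motifs found by their letters on either strand are in capitals. The first is CCAAT, the box bound by factor NF-Y. The second is GGGCGG, the core of the box bound by the Sp factors. The third is TATAAA, the usual form of the TATA box.
Col4a1: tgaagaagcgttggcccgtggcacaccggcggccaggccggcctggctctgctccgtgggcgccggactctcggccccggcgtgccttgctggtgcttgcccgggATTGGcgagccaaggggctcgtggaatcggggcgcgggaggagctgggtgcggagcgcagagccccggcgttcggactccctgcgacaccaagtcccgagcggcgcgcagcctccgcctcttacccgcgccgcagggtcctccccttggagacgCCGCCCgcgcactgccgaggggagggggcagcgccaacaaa
Col4a2: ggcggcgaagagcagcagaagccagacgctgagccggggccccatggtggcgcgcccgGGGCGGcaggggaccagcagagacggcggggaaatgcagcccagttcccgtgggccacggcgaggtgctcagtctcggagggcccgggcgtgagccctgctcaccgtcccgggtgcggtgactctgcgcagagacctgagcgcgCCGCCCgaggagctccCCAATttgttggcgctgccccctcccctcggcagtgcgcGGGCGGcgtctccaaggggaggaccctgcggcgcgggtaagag
Col4a6: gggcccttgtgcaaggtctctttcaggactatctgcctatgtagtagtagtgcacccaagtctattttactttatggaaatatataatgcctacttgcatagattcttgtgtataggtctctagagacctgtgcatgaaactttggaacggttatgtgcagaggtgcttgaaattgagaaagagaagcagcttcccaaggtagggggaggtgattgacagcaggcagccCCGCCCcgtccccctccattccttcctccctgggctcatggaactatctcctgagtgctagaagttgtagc
Col4a5: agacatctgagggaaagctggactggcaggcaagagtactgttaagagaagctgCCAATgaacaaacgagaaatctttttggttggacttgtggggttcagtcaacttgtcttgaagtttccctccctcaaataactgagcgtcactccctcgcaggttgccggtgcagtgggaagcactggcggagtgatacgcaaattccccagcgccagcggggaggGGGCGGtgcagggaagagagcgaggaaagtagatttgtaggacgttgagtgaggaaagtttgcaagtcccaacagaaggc
Col1a2: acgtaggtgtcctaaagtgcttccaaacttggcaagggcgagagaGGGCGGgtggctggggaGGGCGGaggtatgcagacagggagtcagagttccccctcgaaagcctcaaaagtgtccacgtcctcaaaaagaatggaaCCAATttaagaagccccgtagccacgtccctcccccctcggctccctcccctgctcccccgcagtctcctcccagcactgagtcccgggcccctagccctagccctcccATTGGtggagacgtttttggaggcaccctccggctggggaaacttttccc
Col3a1: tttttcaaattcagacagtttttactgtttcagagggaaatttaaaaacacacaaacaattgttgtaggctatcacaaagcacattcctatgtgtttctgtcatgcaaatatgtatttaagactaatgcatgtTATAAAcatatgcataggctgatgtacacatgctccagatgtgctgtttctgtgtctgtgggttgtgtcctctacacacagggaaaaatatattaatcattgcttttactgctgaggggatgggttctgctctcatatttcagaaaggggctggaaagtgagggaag
The windows were chr8:11312777-11313076 (minus strand) for Col4a1, chr8:11312555-11312854 (plus strand) for Col4a2, chrX:141474027-141474326 (minus strand) for Col4a6, chrX:141475169-141475468 (plus strand) for Col4a5, chr6:4505368-4505667 (plus strand) for Col1a2 and chr1:45311288-45311587 (plus strand) for Col3a1. The windows of Col4a1 and Col4a2 hold the same 78 bases, read from opposite strands. The annotated starts of Col4a1 and Col4a2 lie 21 bases apart, those of Col4a6 and Col4a5 1309 bases apart, and those of Col4a4 and Col4a3 on chromosome 1, also head to head, 72 bases apart. Over 13 cell classes, the Spearman correlation of the levels was 0.885 for Col4a1 and Col4a2, 0.967 for Col4a6 and Col4a5, and 0.582 for Col4a4 and Col4a3. Of neighbouring members that do not lie head to head, Col3a1 and Col5a2 had 0.736 and Col6a5 and Col6a4 had 0.704, above the last of these pairs. The remaining neighbours that do not lie head to head ranged from -0.402 (Itga2 and Itga1) to 0.196 (Col6a6 and Col6a5). These correlations are descriptions over classes that share libraries and depth. A promoter of this length was found for 62 member symbols. CCAAT occurred for 29.0% of these symbols and in 37.4% of all 32851 promoters, GGGCGG for 54.8% and in 35.7%, and TATAAA for 8.06% and in 13.6%. Symbols were counted once where any of their windows held the letters, and all promoters window by window. These shares are therefore not of like units.

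After removal of called doublets, 2118 nuclei were kept in the sham control library, and 1018, 3092 and 1570 in the libraries labelled day 1, day 3 and day 7. The libraries held between 23285489 and 42963698 unique molecular identifiers (UMIs, each 1 captured RNA molecule), and the median called nucleus had between 5510 and 11029.5, with the highest in the day 1 library. Clusters were built without the members, and classes were named after markers, so they are written as microglia-like, astrocyte-like and so on. The 10 classes compared with sham control were checked against their markers, of which between 7 of 10 (mural) and all were found in every library. Unnamed clusters held 8.618% of nuclei. The microglia-like class was the whole myeloid cluster of 384 nuclei, of which 53 (2, 4, 41 and 6 in the sham control, day 1, day 3 and day 7 libraries) formed a macrophage-like part. The vascular classes were small, with 33, 6, 52 and 13 endothelial-like, 20, 7, 39 and 10 mural-like and 13, 4, 28 and 16 fibroblast-like nuclei. Pairs of libraries shared between 0 and 3 nucleus barcodes. RNA outside nuclei would supply between 2.12% (day 1) and 5.44% (day 3) of the members' UMIs in nuclei. In what follows, values for the 4 libraries are always in the order sham control, day 1, day 3 and day 7. A level is given in CPM, which divides the UMIs of a gene by those of its whole class in the same library, and a ratio is the level at a day over that of sham control, followed by its exact 95% interval. Intervals cover counting error only. A member was called higher or lower where its ratio passed 2-fold, among genes with at least 40 UMIs in the class over the 4 libraries. Of the 105 calls of members in the 10 classes, 44 were of a member that would fall under 40 UMIs without the library in which it was higher, so the filter has a part in such calls and counts of calls are given as a description, beside those of all genes under the same filter. Thinning each nucleus to 1000 UMIs, an alternative that leaves few molecules per gene, gave no value for 55 of the 109 calls of named members. Of the 54 others, 25 remained, 26 ended and 3 turned direction, and thinning is named below where it did the last. Because reads from introns were counted, levels rise with gene length and are compared across classes and libraries but never between genes.

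Most members were found in these nuclei. UMIs were counted for all 44 collagens (39096 in total), all 11 laminins (11531) and 27 of the 28 integrin rows (25710), and 78 of the 87 rows reached 40 UMIs. Of these 78, 35 (44.9%) were highest, over the pooled libraries, in the endothelial-like, mural-like or fibroblast-like class, against 32.0% of all 17380 genes of that depth. That excess lay in the fibroblast-like class, with 22 members (28.2%) against 10.3% of all genes, while 5 members (6.41%) were highest in endothelial-like and 8 (10.3%) in mural-like nuclei, against 1688 (9.71%) and 2081 of the 17380 genes. By family, 19 of 41 collagens (46.3%), 6 of 11 laminins (54.5%) and 8 of 22 integrins (36.4%) were highest in one of the 3 classes. The fibroblast-like class alone was the highest for 16 of the 41 collagens (39.0%), among them Col1a1, Col1a2 and Col3a1 (fibrils), Col6a1, Col6a2 and Col6a3 (beaded microfibrils) and Col23a1 (a membrane-spanning collagen). Col6a2 was 27.57-fold and Col23a1 23.7-fold above the next class. Of the 43 members highest outside these classes, 21 were highest in ependymal-like (11, or 14.1% of the 78 against 10.6% of all genes) or choroid plexus-like (10, or 12.8% against 2077 of the 17380 genes) nuclei, shares near those of all genes, among them Lama3 and Col6a5 in the former and Col4a3, Col4a4, Col8a1 and Col9a3 in the latter. Of the others, Col19a1 was highest in GABAergic interneuron-like nuclei, Itga8 in glutamatergic neuron-like nuclei, Col11a1, Col20a1 and Itga9 in OPC-like nuclei (oligodendrocyte precursors), Itgad in oligodendrocyte-like nuclei, and Itgb5, Itgav, Itgb2 and Itga5 in microglia-like nuclei. For 28 of the 78 members (35.9%) the same class was highest in each of the 4 libraries, against 3236 of the 17380 genes (18.6%). For 34 of the 78 the interval of the ratio to the next class spanned 1, Col11a1 and Itga5 among them, so that the order of the top 2 classes was not resolved.

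**Figure D1:**
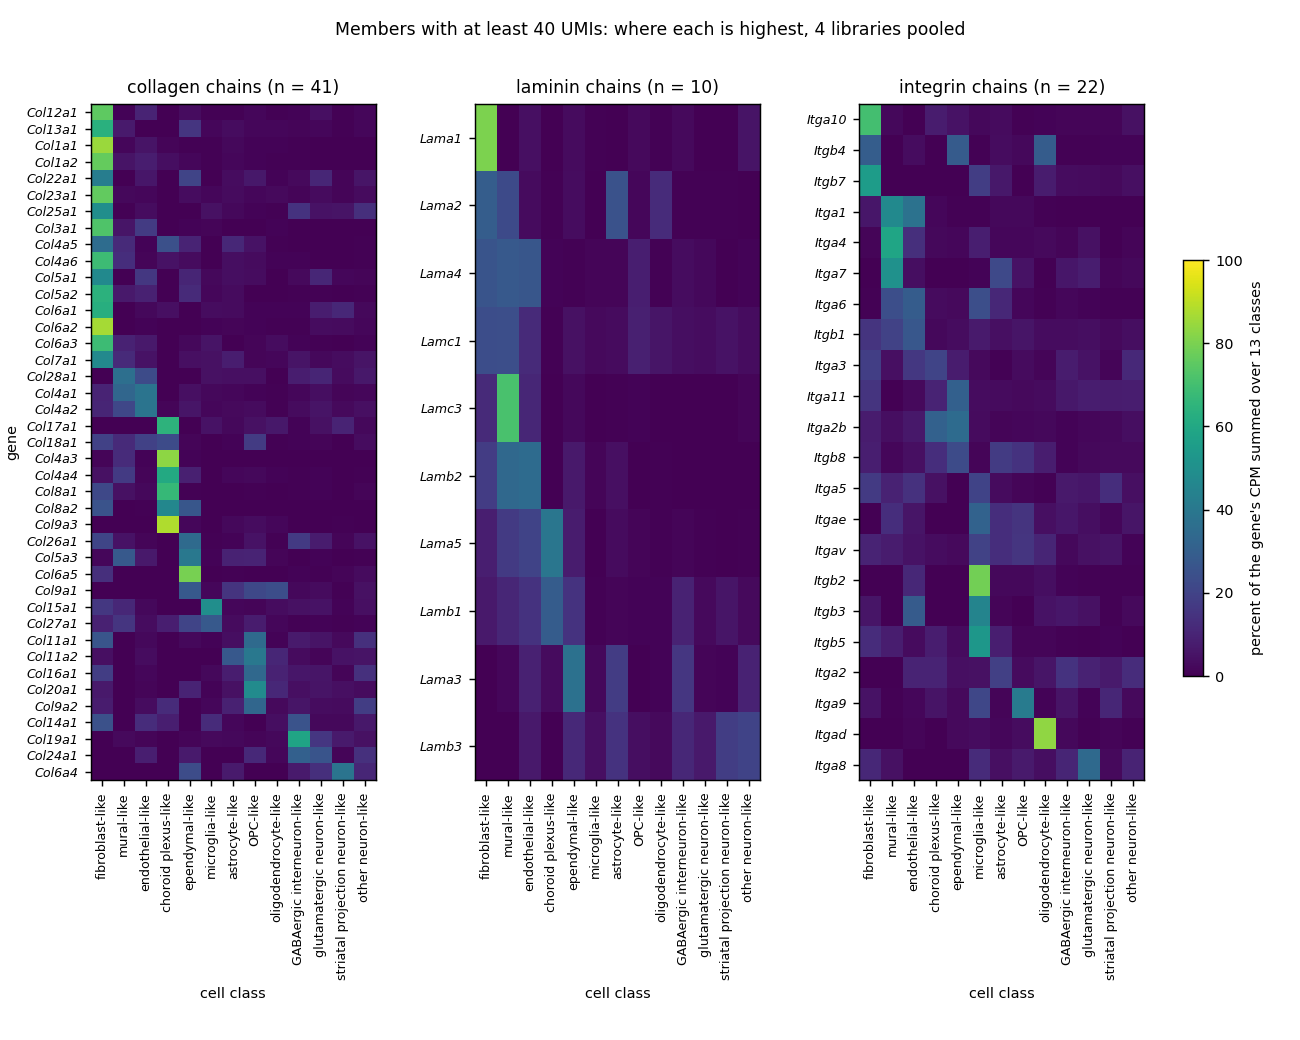
Level of 41 collagens, 10 laminins and 22 integrins with at least 40 UMIs in 13 cell classes, the 4 libraries pooled, as a percent of that gene's CPM summed over the classes (colour), in 1 panel for collagens, 1 for laminins and 1 for integrins; rows are genes and columns are classes. The fibroblast-like column is the brightest for 16 collagens, and the integrin panel is spread over more classes.

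Some members marked a single class and others did not. Besides Col6a2 and Col23a1, steep steps from the highest to the next class were those of Col9a3 in choroid plexus-like nuclei (25.6-fold), Itgad in oligodendrocyte-like nuclei (24.1-fold, 9.33 to 89.2, with 4 UMIs in the next class), and Col1a1 (16.6-fold) and Lama1 (15.03-fold) in fibroblast-like nuclei. Itga10, a collagen receptor chain of cartilage, was 9.31-fold above choroid plexus-like nuclei in the fibroblast-like class (2.37 to 80.3), from 31 UMIs against 2. In contrast, the chains shared by many laminins had neighbours that did not differ beyond their counting error. Lama4 was at 223 CPM in mural-like and 214 CPM in endothelial-like nuclei, Lamc1 at 352 CPM in mural-like and 342 CPM in fibroblast-like nuclei, and Lamb2 at 162 CPM in endothelial-like and 158 CPM in mural-like nuclei. The interval of the ratio spanned 1 in each of these 3 (0.745 to 1.44, 0.756 to 1.41 and 0.701 to 1.53). The mural-like class joined clusters of 44 and 32 nuclei, with Lamc1 at 508.5 and 261.9 CPM and Lama4 at 320.6 and 166.1 CPM. Its near-equal levels thus hold for the class as a whole. Among further members, Col5a1, Col7a1, Col13a1 and Col22a1 were highest in fibroblast-like nuclei, Col11a2 and Col9a2 in OPC-like nuclei, Col26a1, Col6a5 and Col9a1 in ependymal-like nuclei, Col17a1 and Col8a2 in choroid plexus-like nuclei, Itgb3, Itgae and Col15a1 in microglia-like nuclei, and Itga2 in astrocyte-like nuclei. Of these, Col7a1, Col22a1, Col11a2, Col9a1, Col17a1, Itgb3, Itgae, Col15a1 and Itga2 had intervals that spanned 1, and Col22a1 led from 3 UMIs and Col17a1 from 2. The 9 rows that stayed under 40 UMIs were Col6a6 (38), Itgb6 (33), Col2a1 (30), Col10a1 (29), Itgal (15), Itgax (15), Itgb2l (4) and both rows of Itgam (0 and 1).

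The fibril-forming chains Col1a1, Col1a2 and Col3a1 stood above sham control in fibroblast-like nuclei of all 3 later libraries, and furthest in the library labelled day 3. Col3a1, the type III chain, had 46.0, 445, 553 and 221 CPM (2, 15, 64 and 13 UMIs). The sham control level was the lowest, and its 2 UMIs limit what can be said of the ratio, which was 12.04 (3.20 to 102) at day 3, 9.68 (2.25 to 87.2) at day 1 and 4.81 (1.09 to 43.9) at day 7. Of the day 1 UMIs, 13 came from 1 nucleus, and the day 7 call ended without the nucleus richest in the gene (log2 ratio 0.72). Col1a1, one of the type I chains, had 138, 296, 622 and 204 CPM (6, 10, 72 and 12 UMIs), with ratios of 2.15 (0.708 to 7.20), 4.51 (1.98 to 12.7) and 1.48 (0.514 to 4.80). Its intervals cleared 1 at day 3 only. Col1a2, the other type I chain, had 229.8, 534, 847 and 306 CPM (10, 18, 98 and 18 UMIs), and its ratio was 3.69 (1.92 to 7.93) at day 3 and 2.32 (1.02 to 5.63) at day 1. When every nucleus was thinned to 1000 UMIs, the day 3 log2 ratio of Col1a2 turned to -0.26, from 9 UMIs against 5. Col5a2, a type V chain of the same fibrils that was added after its values were seen, had 229.8, 267, 363 and 408 CPM (10, 9, 42 and 24 UMIs). It was highest at day 7 and called at no day, and the interval of each ratio spanned 1.

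Other collagens of these nuclei were less even. Col12a1, which binds to the surface of fibrils, had 161, 326, 493 and 323 CPM (7, 11, 57 and 19 UMIs), above sham control in all 3 later libraries and past 2-fold by a narrow margin at day 1, at 2.03 (0.718 to 6.17), and day 7, at 2.01 (0.808 to 5.65). Size factors or subtraction of ambient RNA ended the day 1 call. At day 3 the ratio was 3.06 (1.39 to 7.96). Col8a1, a network-forming collagen of vessel walls, had 184, 237, 588 and 119 CPM (8, 8, 68 and 7 UMIs), and 42 of its day 3 UMIs were in 1 nucleus. The membrane-spanning collagens Col23a1 and Col25a1 had 368, 119, 795 and 731 CPM (16, 4, 92 and 43 UMIs) and 1241, 29.6, 1504 and 849.7 CPM (54, 1, 174 and 50 UMIs). Both were lowest at day 1, where only 4 nuclei were read, and the Col23a1 call ended there without its richest nucleus. Col6a1 and Col6a3, chains of the type VI microfibril, had 138, 296, 190.2 and 187 CPM (6, 10, 22 and 11 UMIs) and 115, 119, 43.2 and 136 CPM (5, 4, 5 and 8 UMIs). Of the 18 members with 40 UMIs in the class, 7 were higher and 6 lower at day 1, 6 and 0 at day 3, and 3 and 1 at day 7, beside 37.5%, 17.3% and 19.2% of all genes tested in the class. Without the day 3 library, 4 of the 6 members called there (Col3a1, Col12a1, Col1a1 and Col8a1) would have fallen under 40 UMIs. The class's own 12 markers summed to 8870, 4595, 8593 and 8225 CPM and the astrocyte markers to 2206, 4654, 2109 and 2192 CPM, so day 1 was lowest in the former and highest in the latter. In the 4 nuclei of day 1 the astrocyte markers exceeded the class's own, which goes against the name there. The choroid plexus markers summed to 12455, 9813, 8472 and 7478 CPM, nearly all of it from Trpm3 (12042, 9665, 8040 and 7240 CPM), while 4 of those 10 markers were at 0. Their part in the members' values was not tested. With the mean of the nuclei's own CPM in place of the sum, the day 3 split was 6 higher and 1 lower. The median log2 ratio of the 11 collagens was 1.02, 1.11 and 0.83 at days 1, 3 and 7, beside -0.15, 0.10 and 0.07 for all genes tested.

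**Figure D2:**
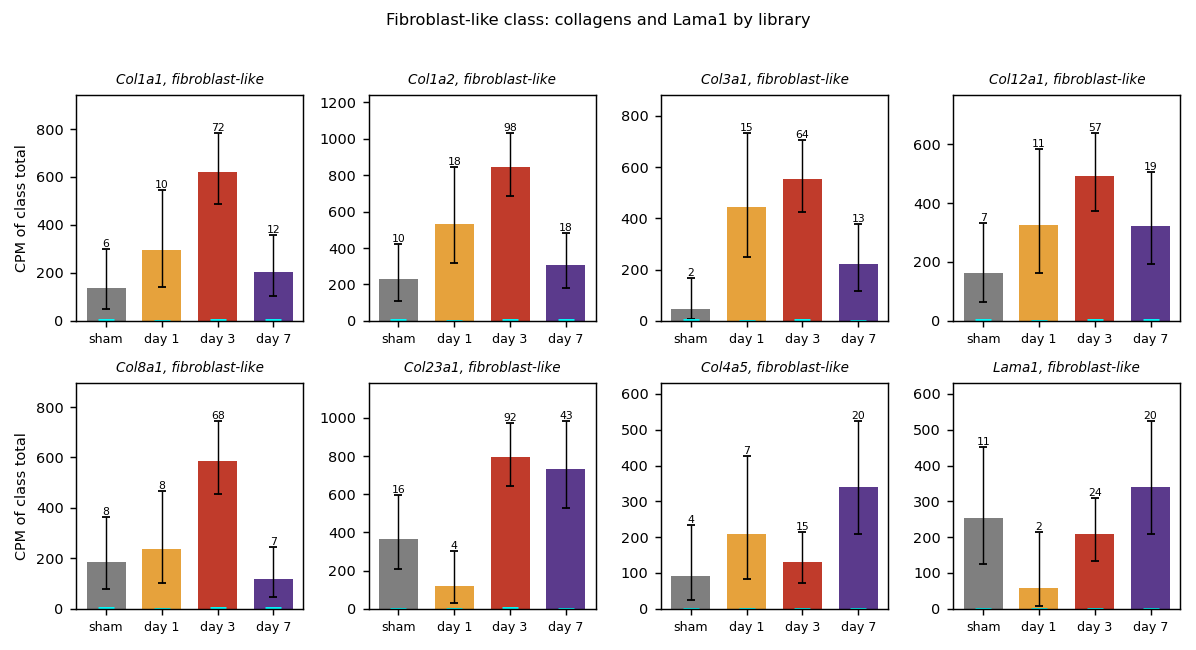
Level of 7 collagens and Lama1 in fibroblast-like nuclei of each library (CPM; error bars are exact 95% Poisson intervals, the number above each bar is its UMIs and the cyan mark is the level expected from RNA outside nuclei). Col1a1, Col1a2 and Col3a1 are highest in the library labelled day 3, with 72, 98 and 64 UMIs.

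The fibroblast-like class was made of 3 clusters, and the collagens were shared unevenly between them. The first, with Slc47a1, Bnc2 and Prdm6 among its leading genes, had 4, 1, 15 and 5 nuclei. It held 0, 1, 63 and 2 Col1a1 UMIs and 2, 3, 81 and 3 Col1a2 UMIs, and the Col1a2 level in it was 122, 368, 1190 and 184 CPM. The second, led by Slc6a13 and Aldh1a2, had 6, 2, 9 and 8 nuclei, and its Col1a2 level was flat by comparison, at 469, 703, 522 and 429.6 CPM. So the day 3 excess of Col1a1 and Col1a2 lay mainly in the first cluster, while Col3a1 was also above sham control in the second, with 2, 0, 44 and 4 UMIs in the first and 0, 2, 20 and 8 in the second. The third, with Cdh1 and Tspan8, had 3, 1, 4 and 3 nuclei, and its single day 1 nucleus supplied 13 Col3a1, 9 Col1a2 and 19 Itgb1 UMIs. The Itgb1 ratio of 3.58 (1.62 to 8.72) at day 1 in the class thus rests on that nucleus.

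The paired genes Col4a5 and Col4a6, whose chains form the type IV network of some epithelia and of smooth muscle, were found together in 1 cluster of the class. Col4a5 was not particular to it, with 46 of its 322 UMIs in the named classes in fibroblast-like nuclei and 183 CPM in fibroblast-like and 126 CPM in choroid plexus-like nuclei, a ratio whose interval spanned 1 (0.835 to 2.63). All 46 Col4a5 and all 48 Col4a6 UMIs of the fibroblast-like class were in the cluster led by Slc6a13 and Aldh1a2, and so were all 57 UMIs of Lama1, the alpha chain of the earliest laminin of the embryo. In the class, Col4a5 had 91.9, 208, 129.7 and 339.9 CPM (4, 7, 15 and 20 UMIs) and Col4a6 had 207, 59.3, 112 and 408 CPM (9, 2, 13 and 24 UMIs). Col4a5 was called higher at days 1 and 7 (ratio 3.70, 1.24 to 14.9), and Col4a6 lower at day 1. For each of these calls the member would have fallen under 40 UMIs without the library in which it was higher. Lama1 had 253, 59.3, 207 and 339.9 CPM (11, 2, 24 and 20 UMIs), with the lowest level at day 1, where 2 nuclei of that cluster were read and the call ended without the richest nucleus. The third pair was highest in choroid plexus-like nuclei (6, 2, 6 and 3 nuclei), in which Col4a3 had 468, 148, 645 and 355 CPM (39, 2, 15 and 11 UMIs) and Col4a4 had 252, 517, 129 and 64.5 CPM (21, 7, 3 and 2 UMIs). Col9a3 and Col8a1 were also highest there, at 1055, 1255, 1117 and 1484 and 1055, 1107, 1160 and 1291 CPM, levels that stayed within a narrow range over the libraries.

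Col4a1 and Col4a2, the chains of the common type IV network of vessel basement membranes, were highest in endothelial-like nuclei in the pooled libraries. The ratio to mural-like nuclei was 1.17 (0.951 to 1.45) for Col4a1, an interval that spanned 1, and 1.82 (1.39 to 2.40) for Col4a2. Endothelial-like nuclei were highest in 2 of 4 libraries for Col4a1 and in 4 of 4 for Col4a2. Col4a1 lies on the minus strand at chr8:11198423-11312826 and overlaps the start of Col4a2, on the plus strand at chr8:11312805-11449287, by 22 bases. In endothelial-like nuclei Col4a1 had 343, 830.1, 695 and 370.1 CPM (39, 27, 247 and 31 UMIs) and Col4a2 had 272, 584, 557 and 537 CPM (31, 19, 198 and 45 UMIs). Both were lowest in sham control. The ratios were 2.42 (1.43 to 4.06) and 2.03 (1.44 to 2.92) for Col4a1 at days 1 and 3, and 2.15 (1.15 to 3.92) and 2.05 (1.40 to 3.09) for Col4a2. These stand close to the 2-fold line, and all 4 calls ended when clusters were merged before naming. Median-of-ratios size factors ended the day 1 calls, the day 1 call of Col4a2 also ended without its richest nucleus (log2 ratio 0.60), its day 3 ratio turned with thinning (-0.13), and subtraction of ambient RNA ended that of Col4a1 at day 3 (log2 ratio 0.98). The class had 3 clusters. In the 2 that held 42 and 41 nuclei, Col4a1 was at 414, 1052, 471 and 448 and 482, 611, 504 and 422 CPM, and the day 3 and day 7 levels lay close to that of sham control. The third, of 21 nuclei with Vwf and Il1r1 among its leading genes and none from day 1, had 190 of the 344 Col4a1 UMIs, at 107.8, 829.7 and 271.2 CPM in the sham control, day 3 and day 7 libraries.

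The same cluster of 21 nuclei held 49 of the 52 Col3a1 UMIs of the endothelial-like class. Col3a1 there had 17.6, 0, 138 and 11.9 CPM (2, 0, 49 and 1 UMIs), and 28 of the day 3 UMIs were in 1 nucleus. The ratio at day 3 was 7.85 (2.06 to 66.7), and the log2 ratio was 1.15 without that nucleus. The summed level of 12 fibroblast markers was 705.16 CPM in this cluster and 154.72 and 145.69 CPM in the other endothelial-like clusters, and in the whole class it was 387, 92.2, 397 and 680.4 CPM, with 2 of the 12 found in every library and 3 at 0. Their part in the Col3a1 level was not tested.

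Laminin chains of the vessel wall were read in the same nuclei. Lama5, an alpha chain of mature endothelium, had 17.6, 30.7, 90.1 and 59.7 CPM (2, 1, 32 and 5 UMIs), with ratios of 5.13 (1.31 to 44.2) at day 3 and 3.40 (0.556 to 35.7) at day 7. Its sham control count is too low to place either ratio closely, and the day 7 call ended without the richest nucleus or with merged clusters. Lama4, the other endothelial alpha chain, had 176, 154, 231 and 215 CPM (20, 5, 82 and 18 UMIs), and none of its ratios passed 2-fold. Lamb2, a beta chain of vessel laminins, had 167, 369, 135 and 191 CPM (19, 12, 48 and 16 UMIs) and was called at day 1 (ratio 2.21, 0.978 to 4.80), but not with median-of-ratios size factors. Lamc1, the gamma chain of most laminins, had 184, 184, 163 and 191 CPM (21, 6, 58 and 16 UMIs). Lama2, better known from glia and mural cells, had 79.1, 0, 45.0 and 179 CPM (9, 0, 16 and 15 UMIs), with a call at day 7. Col18a1, the source of endostatin, had 8.79, 0, 47.9 and 59.7 CPM (1, 0, 17 and 5 UMIs). Col25a1 had 79.1, 30.7, 90.1 and 23.9 CPM (9, 1, 32 and 2 UMIs), lower at day 7 but not without its richest nucleus.

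**Figure D3:**
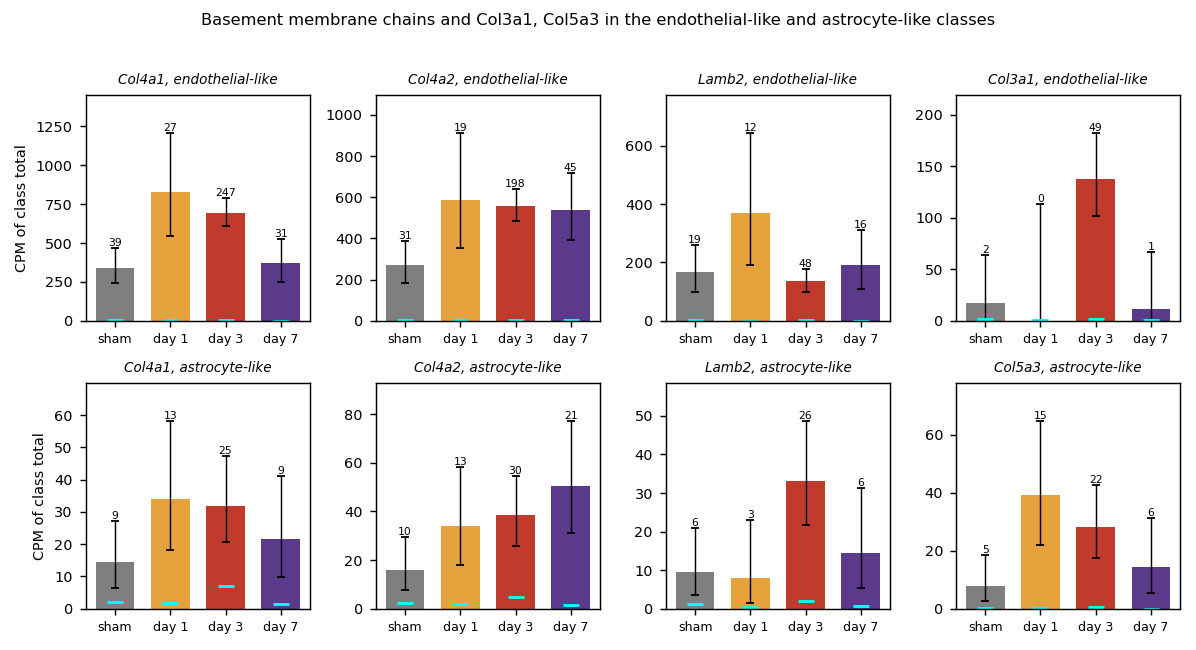
Level of basement membrane genes in endothelial-like and astrocyte-like nuclei of each library (CPM; error bars are exact 95% Poisson intervals, numbers are UMIs and cyan marks are the level expected from RNA outside nuclei). In both classes Col4a1 and Col4a2 are lowest in sham control, and the Poisson intervals are wide at day 1 and day 7.

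Integrin chains were also read in endothelial-like nuclei. Itgb1, the beta chain shared by most collagen and laminin receptors, had 466, 369, 591 and 322 CPM (53, 12, 210 and 27 UMIs), and Itga6, a laminin receptor chain, had 387, 492, 377 and 429.7 CPM (44, 16, 134 and 36 UMIs). Neither passed 2-fold at any day. Itga1, a collagen receptor chain, had 439, 215, 434 and 513 CPM (50, 7, 154 and 43 UMIs), with a call in the lower direction at day 1 (ratio 0.490, 0.187 to 1.09) that ended with merged clusters. Of 13 members with 40 UMIs, 3 were higher and 1 lower at day 1, 4 and 0 at day 3, and 2 and 1 at day 7, beside 20.8%, 11.1% and 21.0% of all genes. Of the 4 members called at day 3, Col3a1 and Lama5 would have fallen under 40 UMIs without that library, as would all 3 members called at day 7 without the library in which each was higher. The astrocyte markers in the class summed to 3470, 676, 819 and 1910 CPM (6 of 14 found in every library, none at 0) and the microglia markers to 211, 461, 470.2 and 692 CPM (4 of 15 found in every library, 1 at 0), so the former were highest and the latter lowest in sham control. Their part in the values of this class, those of Col4a1 and Col4a2 among them, was not tested. With median-of-ratios size factors the day 1 split was 0 higher and 1 lower, and the median of all genes moved by -0.29 on the log2 scale at day 1. The mean of the nuclei's CPM gave 2 and 0 at day 3.

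In mural-like nuclei, a class named for pericytes and smooth muscle cells, 3 of the 10 members tested passed 2-fold on any day. The class joined a cluster of 44 nuclei, in which the mural markers summed to 11033 CPM and the endothelial markers to 4422 CPM, with one of 32 nuclei, in which they summed to 7269 and 15772 CPM. The second held 5, 0, 21 and 6 nuclei, and the endothelial markers in the class were 10601, 1237, 11688 and 14992 CPM beside 10116, 15673, 7376 and 8109 CPM for its own, so their share differed between day 1 and the other libraries. They exceeded the class's own markers in the sham control, day 3 and day 7 libraries, which goes against the name there. Their part in the values that follow was not tested. Lama2 had 609.7, 1340, 508 and 429 CPM (44, 13, 59 and 21 UMIs), Col4a1 had 429.6, 516, 568 and 449 CPM (31, 5, 66 and 22 UMIs) and Itga1 had 554, 722, 542 and 490.2 CPM (40, 7, 63 and 24 UMIs). Lamc3, a gamma chain that was highest in this class, had 236, 206, 181 and 143 CPM (17, 2, 21 and 7 UMIs). Itga4, whose product binds fibronectin and VCAM, had 236, 722, 112 and 143 CPM (17, 7, 13 and 7 UMIs), with 33 of its 44 UMIs in the first cluster, whereas 70 of the 80 UMIs of Itga6 were in the second. Lama4 had 291, 103, 241 and 102 CPM (21, 1, 28 and 5 UMIs) and was lower at day 7 (ratio 0.351, 0.103 to 0.956). Lama4 at day 7 and Itga4 at days 1 and 3 would have fallen under 40 UMIs without the library in which each was higher. Of 10 members tested, 2 were higher and 0 lower at day 1 (Itga4 and Lama2, both lost with size factors), 0 and 1 at day 3 (Itga4, lost with merged clusters), and 0 and 1 at day 7, beside 20.4%, 6.77% and 17.0% of all genes. With size factors the day 1 split was 0 and 1, and with the mean of the nuclei's CPM the day 7 split was 1 and 1. Size factors moved the median of all genes by -0.86 at day 1 and 0.12 at day 7.

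Astrocyte-like nuclei, whose end-feet rest on the vessel basement membrane, carried the same type IV chains at a far lower level than endothelial-like nuclei. Col4a1 had 14.4, 34.1, 32.0 and 21.7 CPM (9, 13, 25 and 9 UMIs) and Col4a2 had 16.0, 34.1, 38.4 and 50.5 CPM (10, 13, 30 and 21 UMIs). All 6 later values were above sham control, with ratios of 2.37 (0.935 to 6.27) and 2.22 (1.002 to 5.41) for Col4a1 at days 1 and 3, and 2.40 (1.14 to 5.50) and 3.16 (1.42 to 7.51) for Col4a2 at days 3 and 7. At day 1, 8 of the Col4a2 UMIs were in 1 nucleus, and the log2 ratio turned from 1.09 to -0.18 with merged clusters. Col5a3, a type V chain that joins fibrils, had 7.9995, 39.3, 28.1 and 14.4 CPM (5, 15, 22 and 6 UMIs), with ratios of 4.91 (1.70 to 17.3) at day 1 and 3.52 (1.30 to 11.9) at day 3 and none past 2-fold at day 7. Lamb2 had 9.60, 7.86, 33.2 and 14.4 CPM (6, 3, 26 and 6 UMIs) and was higher at day 3 (ratio 3.46, 1.39 to 10.3). Col4a1, Col5a3 and Lamb2 would have fallen under 40 UMIs in the class without the day 3 library, and Col5a3 also without the day 1 library. The endothelial markers summed to 52.8, 31.4, 85.7 and 255 CPM and the microglia markers to 198, 251, 403 and 639.9 CPM in this class, both highest at day 7. Their part in these values was not tested.

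Other members of astrocyte-like nuclei differed among themselves in direction. Lama2, the alpha chain that end-feet bind through dystroglycan, had 590.4, 506, 696 and 621 CPM (369, 193, 544 and 258 UMIs), and no ratio passed 2-fold. Itgav, Itgb8 and Itgb5, which together make receptors for vitronectin and for latent TGF-beta, had 160.0, 196, 208 and 214 CPM (100, 75, 163 and 89 UMIs), 147, 126, 159 and 152 CPM (92, 48, 124 and 63 UMIs) and 86.4, 83.8, 111 and 137 CPM (54, 32, 87 and 57 UMIs). The laminin receptor chains Itga6 and Itga7 had 176, 118, 147 and 156 CPM (110, 45, 115 and 65 UMIs) and 17.6, 15.7, 29.4 and 16.8 CPM (11, 6, 23 and 7 UMIs). None of these 5 chains passed 2-fold. Lama3 had 43.2, 60.2, 38.4 and 19.2 CPM (27, 23, 30 and 8 UMIs) and Itga1 had 32.0, 21.0, 23.02 and 14.4 CPM (20, 8, 18 and 6 UMIs), and both were lower at day 7 (ratios of 0.446, 0.175 to 1.01 and of 0.451, 0.148 to 1.17). Itga1 would have fallen under 40 UMIs without the sham control library. Col9a3 had 28.8, 13.1, 30.7 and 40.9 CPM (18, 5, 24 and 17 UMIs), lowest at day 1, a call that ended with merged clusters. Col25a1 had 25.6, 41.9, 35.8 and 111 CPM (16, 16, 28 and 46 UMIs), but 33 of the day 7 UMIs were in 1 nucleus, without which the log2 ratio was 0.59. Of 22 members tested, 3 were higher and 1 lower at day 1, 4 and 0 at day 3, and 2 and 2 at day 7, beside 11.0%, 6.35% and 9.89% of all genes. With the mean of the nuclei's CPM the splits were 2 and 0 at day 1 and 3 and 0 at day 7. The median log2 ratio of the 9 collagens was 0.13, 0.48 and 0.59, beside -0.10, -0.03 and -0.08 for all genes.

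OPC-like nuclei carried a further fibril collagen. Col11a1, a chain of the thin type XI fibril at chr3:114030540-114220718, had 104, 97.6, 293 and 213 CPM (28, 22, 109 and 44 UMIs). The day 3 and day 7 levels were above the sham control and day 1 levels, with ratios of 2.81 (1.84 to 4.43) and 2.05 (1.25 to 3.42). Merged clusters ended the day 7 call. Col16a1, which binds to fibrils and is a ligand of collagen receptors, had 18.6, 44.4, 99.3 and 58.1 CPM (5, 10, 37 and 12 UMIs), past 2-fold in all 3 later libraries and at 5.35 (2.10 to 17.4) at day 3. It would have fallen under 40 UMIs without the day 3 library. Col20a1, of the same subgroup as Col12a1, had 37.2, 79.9, 53.7 and 53.2 CPM (10, 18, 20 and 11 UMIs), called at day 1 but not without its richest nucleus. Itgb1 had 74.3, 151, 105 and 116 CPM (20, 34, 39 and 24 UMIs), called at day 1 (ratio 2.03, 1.14 to 3.72) but at a log2 ratio of -0.04 when nuclei were thinned. Col4a2 had 26.0, 53.3, 40.3 and 33.9 CPM (7, 12, 15 and 7 UMIs), with a day 1 call that ended with size factors, as did that of Itgb1. Col4a2 would have fallen under 40 UMIs without the day 1 library. Lamc1 had 193, 133, 113 and 77.4 CPM (52, 30, 42 and 16 UMIs) and was lower at day 7 (ratio 0.401, 0.214 to 0.713). Itga9 and Itgav, receptors for tenascin and vitronectin, had 349, 249, 276 and 353 CPM (94, 56, 103 and 73 UMIs) and 245, 226, 258 and 155 CPM (66, 51, 96 and 32 UMIs), with no call. The oligodendrocyte markers in the class summed to 754, 1505, 1874 and 1249 CPM (10 of 12 found in every library, none at 0) and the fibroblast markers to 33.4, 22.2, 37.6 and 266 CPM (1 of 12 found in every library, 2 at 0), beside 16261, 15729, 16854 and 16959 CPM for its own. The first were lowest in sham control and the second highest at day 7, and their part in these values was not tested. Of 14 members tested, 4 were higher and 0 lower at day 1, 2 and 0 at day 3, and 2 and 1 at day 7, beside 9.95%, 7.4% and 10.1% of all genes. The mean of the nuclei's CPM gave 1 and 0 at day 1 and 3 and 0 at day 3, and size factors 2 and 0 at day 1. The median log2 ratio of the 6 collagens was 0.47, 0.58 and 0.87, beside 0.03, 0.02 and -0.05 for all genes.

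The clearest member of oligodendrocyte-like nuclei was Itgad, an alpha chain that pairs with Itgb2 in leukocytes. It had 57.7, 188, 74.6 and 89.998 CPM (45, 103, 76 and 64 UMIs), found in 33, 54, 60 and 46 nuclei. Day 1 stood above the other libraries, whose intervals overlap one another, and the ratio of 3.26 (2.27 to 4.73) passed 2-fold under every setting tried. Pooled over libraries, its level here was 24.15-fold that in microglia-like nuclei, and oligodendrocyte-like nuclei were the highest class in 4 of 4 libraries. The gene lies at chr7:128154376-128223816 on the plus strand, within which Cox6a2 and Gm44850 lie on the other strand. The strand used in counting is not given in the sources used here, so reads of overlapping genes cannot be told apart with certainty. Gm44850 had 6, 18, 4 and 5 UMIs and Cox6a2 had 3, 4, 3 and 2 in the same nuclei. Lama2 had 278, 316, 338 and 294 CPM (217, 173, 344 and 209 UMIs) and Itgb4, the partner of Itga6 in laminin binding, had 51.3, 47.4, 43.2 and 49.2 CPM (40, 26, 44 and 35 UMIs), both without a call. Col16a1 had 12.8, 7.30, 17.7 and 28.1 CPM (10, 4, 18 and 20 UMIs) and was higher at day 7 (ratio 2.19, 0.980 to 5.25). It would have fallen under 40 UMIs without the day 7 library. The OPC markers, of the class in which Col16a1 was highest, summed to 626, 409, 823 and 1128 CPM here, also highest at day 7, and their part was not tested. Of 14 members tested, 1 was higher and 0 lower at day 1, none at day 3, and 1 and 0 at day 7, beside 9.26%, 4.8% and 6.86% of all genes.

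**Figure D4:**
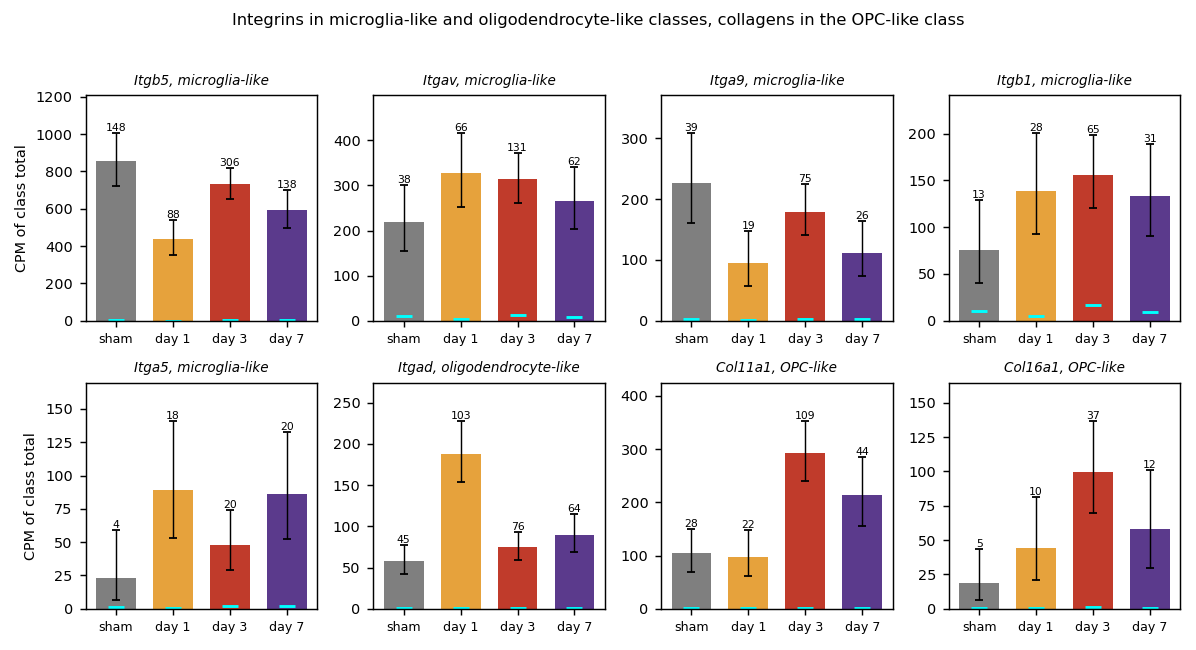
Level of integrin and collagen genes in microglia-like, oligodendrocyte-like and OPC-like nuclei of each library (CPM; error bars are exact 95% Poisson intervals, numbers are UMIs and cyan marks are the level expected from RNA outside nuclei). Itgad stands highest at day 1 with 103 UMIs, and Col11a1 at day 3 with 109 UMIs.

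Of the receptor chains for vitronectin and fibronectin, Itgb5, Itgav and Itga5 were highest in microglia-like nuclei, Itga5 by only 1.17-fold over fibroblast-like nuclei (0.637 to 2.32). Itgb5, at chr16:33829665-33949338, had 857, 436, 732 and 592 CPM (148, 88, 306 and 138 UMIs). It was lower at day 1 by a margin that stopped short of 2-fold (ratio 0.509, 0.387 to 0.667). Without the macrophage-like part, Itgb5 was at 864.84 CPM in sham control and 405.96 CPM at day 1, past 2-fold. Its partner Itgav had 220.0, 327, 314 and 266 CPM (38, 66, 131 and 62 UMIs) and Itga6 had 428, 342, 285 and 309 CPM (74, 69, 119 and 72 UMIs), neither called at any day. Itga5, a fibronectin receptor chain, had 23.2, 89.3, 47.9 and 85.8 CPM (4, 18, 20 and 20 UMIs), above sham control in all 3 libraries, with ratios of 3.85 (1.27 to 15.7), 2.07 (0.692 to 8.31) and 3.71 (1.24 to 14.9). Its partner Itgb1 had 75.3, 139, 156 and 133 CPM (13, 28, 65 and 31 UMIs), called at day 3 (ratio 2.07, 1.13 to 4.09). The 8 macrophage markers summed to 359, 436, 763 and 618 CPM in the class, highest at day 3, and the macrophage-like part held 41 of the 180 day 3 nuclei of the class. At day 3, Itga5 was at 133.87 CPM and Itgb1 at 248.61 CPM in that part, and at 19.153 and 124.5 CPM in the rest of the class. Without the macrophage-like part the day 3 log2 ratio was -0.30 for Itga5 and 0.70 for Itgb1, and neither was called.

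Other integrin chains and collagens of the myeloid cluster were read from fewer molecules. Itga9 had 226, 94.2, 179 and 112 CPM (39, 19, 75 and 26 UMIs), lower at day 1 (ratio 0.417, 0.228 to 0.740) and day 7 (ratio 0.494, 0.289 to 0.833), the latter call lost with size factors, merged clusters or without the macrophage-like part. Itgb2, the beta chain of the leukocyte integrins, had 17.4, 39.7, 40.7 and 38.6 CPM (3, 8, 17 and 9 UMIs) and Itgax, one of its partners, had 0, 9.92, 4.79 and 34.3 CPM (0, 2, 2 and 8 UMIs). Both lay under the 40 UMIs needed for a call. Itgb3 had 52.1, 14.9, 31.1 and 34.3 CPM (9, 3, 13 and 8 UMIs). Itgal, a partner of Itgb2 in lymphocytes, had no UMI in these nuclei and 3, 4, 8 and 0 in all nuclei. Itgam, the chain known as CD11b that defines microglia in flow cytometry, was not measurable: the gene table has 2 rows of that symbol that overlap on the plus strand of chromosome 7, with 0 and 1 UMIs in all nuclei, and molecules assigned to more than one gene were removed in the counting, whose part was not tested. Col27a1, a fibril collagen, had 168, 74.4, 103 and 112 CPM (29, 15, 43 and 26 UMIs) and was lower at day 1. Col25a1 had 23.2, 178, 59.8 and 150.2 CPM (4, 36, 25 and 35 UMIs), with 25 of the day 1 UMIs in 1 nucleus. Of 9 members tested, 2 were higher and 2 lower at day 1, 3 and 0 at day 3, and 2 and 1 at day 7, beside 19.3%, 10.1% and 13.6% of all genes. With the mean of the nuclei's CPM the splits were 2 and 1 at day 1 and 0 and 0 at day 3, and with size factors 2 and 0 at day 7.

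In glutamatergic neuron-like nuclei 58 members were tested, of which 2 were higher and 3 lower at day 1, 1 and 3 at day 3, and 2 and 2 at day 7, beside 4.87%, 2.6% and 4.75% of all genes. With the mean of the nuclei's CPM the splits were 3 and 2 at day 1 and 2 and 3 at day 3, and with size factors 2 and 1 at day 7. Col5a2, a type V chain at chr1:45374321-45503282, was called in all 3 later libraries. It had 0.582, 3.11, 2.34 and 5.33 CPM (4, 18, 23 and 32 UMIs), in 4, 12, 20 and 12 nuclei, with ratios of 5.34 (1.76 to 21.7), 4.02 (1.37 to 16.0) and 9.15 (3.25 to 35.6). The calls remained without the richest nucleus, with ambient RNA subtracted, with size factors and with merged clusters, while thinned nuclei held too few of its UMIs to give a value. Col14a1, which binds to fibrils, had 1.16, 2.94, 1.02 and 2.83 CPM (8, 17, 10 and 17 UMIs) and was called at days 1 and 7. Itgb5 had 2.62, 0.864, 3.46 and 2.33 CPM (18, 5, 34 and 14 UMIs) and Col15a1 3.35, 1.55, 4.37 and 4.99 CPM (23, 9, 43 and 30 UMIs), lower at day 1, as was Col9a3 with 3.06, 1.38, 1.63 and 2.16 CPM (21, 8, 16 and 13 UMIs). Col9a2 had 2.77, 2.25, 1.32 and 1.33 CPM (19, 13, 13 and 8 UMIs) and Col28a1 3.06, 3.63, 1.42 and 1.498 CPM (21, 21, 14 and 9 UMIs), both lower at days 3 and 7. Col9a1 had 2.18, 1.38, 1.02 and 1.33 CPM (15, 8, 10 and 8 UMIs) and was lower at day 3. The calls of Col9a2 ended with merged clusters, that of Col9a1 without its richest nucleus, and that of Col28a1 at day 7 with size factors. Col9a1, Col9a2, Col9a3 and Col14a1 would have fallen under 40 UMIs without the library in which each was higher.

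Members known from neurons were read in these nuclei. Col19a1, a fibril-associated collagen required for inhibitory synapses, had 104, 102, 102 and 81.6 CPM (716, 590, 1001 and 490 UMIs) in glutamatergic and 392, 240.2, 339 and 481 CPM (452, 239, 435 and 470 UMIs) in GABAergic interneuron-like nuclei. Itga8, a receptor chain of hippocampal synapses, had 48.3, 57.7, 67.3 and 71.2 CPM (332, 334, 662 and 428 UMIs) in glutamatergic neuron-like nuclei and Col24a1, a fibril collagen, 8.005, 11.7, 12.4 and 9.82 CPM (55, 68, 122 and 59 UMIs). Col25a1, known for binding amyloid, had 85.0, 77.7, 113 and 148 CPM (584, 450, 1115 and 887 UMIs) in glutamatergic, 242, 203, 395 and 456 CPM (279, 202, 507 and 446 UMIs) in GABAergic interneuron-like and 111, 136, 89.3 and 162 CPM (367, 260, 289 and 317 UMIs) in striatal projection neuron-like nuclei. None of these 4 genes passed 2-fold in the classes given.

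In GABAergic interneuron-like nuclei 11 members passed 2-fold on any day. Of the 8 called at day 1, 6 (Col24a1, Lama2, Col23a1, Itgb8, Itga2 and Col8a1) would have fallen under 40 UMIs without the library in which each was higher. At day 7 the same held for Col16a1 and Col23a1. Lama4 had 25.1, 5.02, 33.5 and 38.9 CPM (29, 5, 43 and 38 UMIs) and Col24a1 had 13.9, 1.005, 15.6 and 18.4 CPM (16, 1, 20 and 18 UMIs), both lowest at day 1, where the ratio of Lama4 was 0.1999 (0.0604 to 0.522). Itga2, a collagen receptor chain, had 6.07, 22.1, 3.12 and 10.2 CPM (7, 22, 4 and 10 UMIs) and Col23a1 had 6.07, 21.1, 3.90 and 15.3 CPM (7, 21, 5 and 15 UMIs), both highest at day 1. The Col23a1 call ended without its richest nucleus. Col11a1 had 32.1, 19.1, 29.6 and 76.7 CPM (37, 19, 38 and 75 UMIs), called at day 7 (ratio 2.39, 1.59 to 3.65). Itga11, another collagen receptor chain, had 11.3, 25.1, 12.5 and 23.5 CPM (13, 25, 16 and 23 UMIs), called at days 1 and 7. Itga6 had 34.7, 26.1, 15.6 and 16.4 CPM (40, 26, 20 and 16 UMIs) and was lower at days 3 and 7, the only member called at day 3. Lama2 had 7.80, 17.1, 11.7 and 5.11 CPM (9, 17, 15 and 5 UMIs) and Col8a1 had 6.93, 14.1, 10.9 and 5.11 CPM (8, 14, 14 and 5 UMIs), both called higher at day 1. Itgb8 had 11.3, 4.02, 13.2 and 6.14 CPM (13, 4, 17 and 6 UMIs) and Col16a1 13.9, 12.1, 10.1 and 5.11 CPM (16, 12, 13 and 5 UMIs). Of 29 members tested, 5 were higher and 3 lower at day 1, 0 and 1 at day 3, and 3 and 2 at day 7, beside 4.49%, 3.86% and 5.85% of all genes. With the mean of the nuclei's CPM the day 1 split was 3 higher and 4 lower.

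In striatal projection neuron-like nuclei, Col23a1 had 4.53, 18.8, 8.96 and 10.2 CPM (15, 36, 29 and 20 UMIs), with a ratio of 4.16 (2.22 to 8.18) at day 1. Itgb5 had 8.15, 13.6, 14.2 and 3.07 CPM (27, 26, 46 and 6 UMIs) and was lower at day 7, a call that ended with merged clusters. Lamb3, an epithelial laminin chain, had 6.64, 4.19, 3.09 and 3.58 CPM (22, 8, 10 and 7 UMIs) and was highest in sham control. Col6a2 had 4.53, 2.62, 4.02 and 9.71 CPM (15, 5, 13 and 19 UMIs) and Itga8 had 4.23, 5.76, 5.25 and 2.04 CPM (14, 11, 17 and 4 UMIs). Lamb3, Col6a2 and Itga8 would have fallen under 40 UMIs without the library in which each was higher. Of 31 members tested, 1 was higher and 1 lower at day 1, 0 and 1 at day 3, and 2 and 2 at day 7, beside 4.86%, 2.68% and 4.6% of all genes. With size factors the day 3 split was 2 and 1 and with the mean of the nuclei's CPM 1 and 0, the latter also giving 3 and 2 at day 1 and 2 and 1 at day 7.

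Over all nuclei of a library together, 4 of the 41 collagens tested were called higher at day 3, namely Col3a1, Col1a1, Col1a2 and Col5a2. The fibrillar collagens Col5a1, Col5a3, Col11a1, Col11a2, Col24a1 and Col27a1 were tested and not called. In such a sum fewer cells of a type and less RNA per cell cannot be told apart. Col3a1 had 1.63, 1.62, 7.59 and 1.79 CPM (27, 21, 162 and 24 UMIs), Col1a1 had 2.41, 1.31, 7.17 and 2.09 CPM (40, 17, 153 and 28 UMIs) and Col1a2 had 3.44, 2.24, 9.46 and 3.88 CPM (57, 29, 202 and 52 UMIs), with day 3 ratios of 4.66 (3.08 to 7.28), 2.97 (2.08 to 4.32) and 2.75 (2.04 to 3.76). There were 28 fibroblast-like nuclei among 3092 in the day 3 library and 13 among 2118 in the sham control library. Col5a2 had 2.90, 4.55, 7.21 and 7.02 CPM (48, 59, 154 and 94 UMIs), Lamb2 3.08, 2.24, 6.93 and 3.21 CPM (51, 29, 148 and 43 UMIs) and Itgb2 0.423, 0.849, 1.59 and 0.970 CPM (7, 11, 34 and 13 UMIs), and all 3 were called at day 3. Itgad was higher at day 1 (ratio 3.14, 2.26 to 4.40), as in oligodendrocyte-like nuclei. Col4a3 and Lamc3 were lower at day 1, with 3.92, 1.54, 2.11 and 1.79 CPM (65, 20, 45 and 24 UMIs) and 2.11, 0.695, 2.44 and 1.87 CPM (35, 9, 52 and 25 UMIs). The day 1 call of Col4a3 ended without its richest nucleus, one of the sham control library. Lamb1 had 15.3, 15.7, 15.5 and 16.4 CPM (253, 204, 330 and 220 UMIs), Lama3 11.1, 7.49, 9.70 and 8.88 CPM (184, 97, 207 and 119 UMIs), Col18a1 3.56, 3.09, 4.22 and 5.67 CPM (59, 40, 90 and 76 UMIs) and Itgb1 71.3, 75.0, 75.2 and 63.6 CPM (1181, 972, 1605 and 852 UMIs), none of them called. Of 78 members tested, 3 were higher and 4 lower at day 1, 6 and 1 at day 3, and 3 and 2 at day 7, beside 5.33%, 3.88% and 4.5% of all genes. With size factors the splits were 2 and 5 at day 1 and 6 and 0 at day 3.

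**Figure D5:**
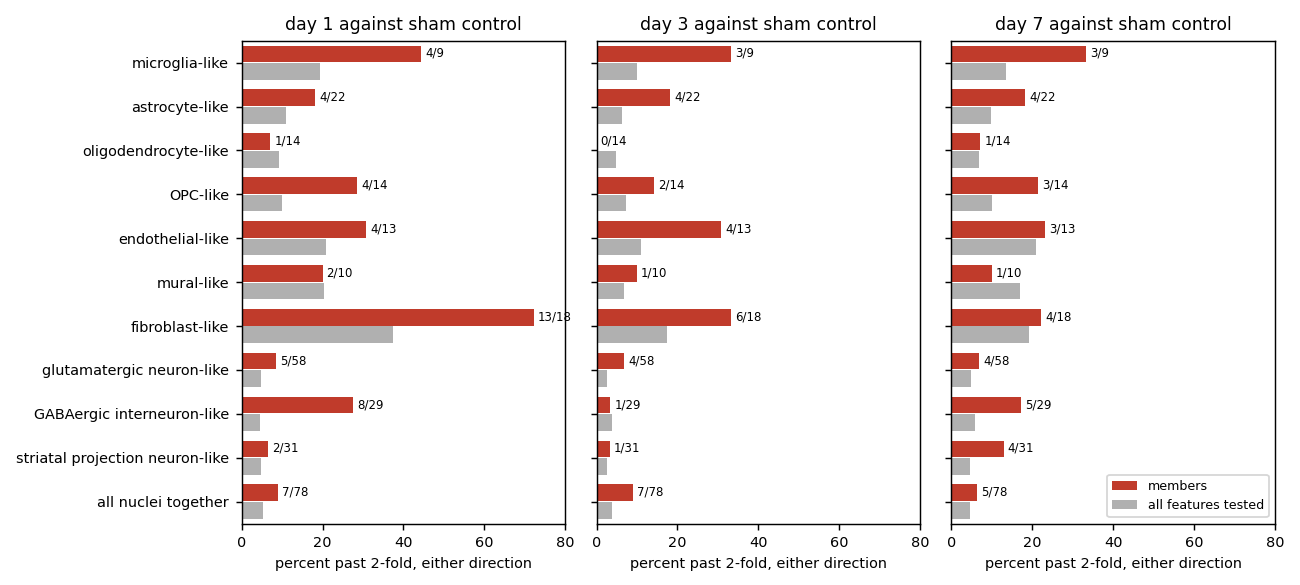
Percent of members and of all genes tested that passed 2-fold against sham control in either direction, for each cell class and day; each class has 1 bar for the members and 1 for all genes. The shares range at day 1 from 72.2% of members beside 37.5% of all genes in fibroblast-like to 6.45% beside 4.86% in striatal projection neuron-like nuclei. The members lie under all genes in oligodendrocyte-like nuclei at day 1 (7.14% beside 9.26%) and day 3 (0.0% beside 4.8%). They also do so in mural-like nuclei at day 1 (20.0% beside 20.4%) and day 7 (10.0% beside 17.0%), and in GABAergic interneuron-like nuclei at day 3 (3.45% beside 3.86%).

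The 4 integrin-named genes that are no chains passed 2-fold at no day over all nuclei. Itgb3bp, a centromere protein, had 55.1, 51.1, 45.2 and 50.5 CPM (913, 662, 964 and 677 UMIs), and Itgb1bp1, which binds the tail of Itgb1, had 22.9, 19.1, 20.3 and 19.8 CPM (380, 247, 434 and 265 UMIs). Itgbl1, a secreted protein that resembles integrin beta chains, had 47.1, 56.5, 41.5 and 53.1 CPM (780, 732, 886 and 712 UMIs), and Itgb1bp2, known as melusin, 1.87, 2.55, 2.11 and 1.42 CPM (31, 33, 45 and 19 UMIs). In fibroblast-like nuclei Itgbl1 had 689, 208, 743 and 782 CPM (30, 7, 86 and 46 UMIs), lower at day 1.

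Genes that assemble, cut or anchor the matrix were examined in 5 lists of 77 genes in all, chosen with earlier results of these data known. Of 299 pairs of a gene and a class with 40 UMIs in the 10 classes, 61 (20.4%) passed 2-fold on at least 1 day, beside 17.2% of all such pairs of a gene and a class. In fibroblast-like nuclei Fn1 (fibronectin) had 1563, 415, 986 and 816 CPM (68, 14, 114 and 48 UMIs), Sparc, which binds collagen, had 184, 623, 510.1 and 476 CPM (8, 21, 59 and 28 UMIs) and Fbln1, a basement membrane partner, had 184, 741, 424 and 153 CPM (8, 25, 49 and 9 UMIs). Ddr2, a receptor for fibrillar collagen, had 91.9, 178, 346 and 459 CPM (4, 6, 40 and 27 UMIs), with a day 3 ratio of 3.76 (1.36 to 14.5). In endothelial-like nuclei Serpinh1, the chaperone of collagen folding, had 87.9, 92.2, 183 and 143 CPM (10, 3, 65 and 12 UMIs) and Nid1, which ties laminin to type IV collagen, had 52.7, 92.2, 118 and 59.7 CPM (6, 3, 42 and 5 UMIs). Both passed 2-fold at day 3, at 2.08 (1.06 to 4.55) and 2.24 (0.949 to 6.46). Sparc had 1054, 2490, 1686 and 1779 CPM (120, 81, 599 and 149 UMIs) there. In astrocyte-like nuclei Cd44, a receptor for hyaluronan and collagen, had 14.4, 7.86, 40.9 and 36.1 CPM (9, 3, 32 and 15 UMIs), with ratios of 2.84 (1.33 to 6.77) at day 3 and 2.51 (1.03 to 6.49) at day 7. In microglia-like nuclei Fn1, the ligand of the Itga5 and Itgb1 pair, had 0, 114, 117 and 73.0 CPM (0, 23, 49 and 17 UMIs), with none of its UMIs in sham control, and Tln1, which links integrin tails to actin, had 69.5, 114, 151 and 94.4 CPM (12, 23, 63 and 22 UMIs). In fibroblast-like nuclei 3 of the 6 basement membrane and matrix partners tested were higher and 2 lower at day 1, 2 and 1 at day 3, and 1 and 0 at day 7, beside 37.5%, 17.3% and 19.2% of all genes. In endothelial-like nuclei 1 of 8 was higher and none lower at each day, beside 20.8%, 11.1% and 21.0% of all genes, a share near or under that of all genes. In OPC-like nuclei Timp4, an inhibitor of metalloproteinases, had 96.6, 53.3, 45.6 and 29.0 CPM (26, 12, 17 and 6 UMIs) and was lower at days 3 and 7.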

How the data were processed

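Nuclei of 4 libraries were profiled by 10x droplet snRNA-seq. The authors mapped reads to GRCm38 and deposited raw UMI counts per gene and barcode, which the study's methods describe as exonic and intronic counts made with STARsolo, with molecules shared by several genes removed. The submitters' processing notes name STAR 2.7.3a. All steps below started from the deposited counts, which held no other unit.

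Within each library, nuclei were separated from empty droplets by a re-implemented emptyDrops test (barcodes of at most 1000 UMIs as background, FDR under 0.001), doublets were removed by Scrublet score (37, 8, 81 and 20 in sham control, day 1, day 3 and day 7), and libraries were integrated in Seurat 5.3.0 (R 4.3.3) without the members and related genes. The 30 clusters, 3 of them split further, were named from 180 markers by naming rules set after the clusters were seen. UMIs were summed per class and library, divided by the class total, and compared as ratios with exact conditional binomial intervals. Sums under 3 UMIs were set to 3, and no call was made where the higher side held 3 UMIs or fewer, a rule added after seeing the data. Levels from RNA outside nuclei were estimated from barcodes under the nucleus threshold. Named were a fixed list of members and, for each class, at most 8 members past 2-fold with the largest ratios. The values of 1 member are not reported here, and the counts over members include it. The members, lists and markers were chosen with earlier results of these data known. Promoters came from RefSeq (GRCm38.p6) and gene positions from the annotation of that build, in which 53 of the 87 rows overlap another gene. The scripts were tested on simulated data. The depth was 28195551, 23285489, 42963698 and 25033355 UMIs.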

Additional observations from a re-analysis of the deposited data

How the results depend on the processing

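With 1 library per group no replicate could be left out. No paired analysis was possible because each group has 1 library and the labels give no shared replicate numbers. Of 122 recomputed counts of members past 2-fold, 84 stayed within 1.5 times the count reported and 38 did not. Of 81 recomputed list medians over all nuclei 80 stayed within the median of the members' own counting intervals, and all 6 counts of members highest in a vascular class stayed within 1.5 times. Depth limits the small classes most, since ratios there rest on few UMIs and few nuclei. Members past 2-fold at any day were 5 in microglia-like, 8 in astrocyte-like, 2 in oligodendrocyte-like, 6 in OPC-like, 8 in endothelial-like, 3 in mural-like, 14 in fibroblast-like, 8 in glutamatergic neuron-like, 11 in GABAergic interneuron-like, 6 in striatal projection neuron-like and 14 over all nuclei as reported. In that order, 9, 22, 14, 14, 13, 10, 18, 58, 29, 31 and 78 members were tested. Over the 10 classes, 17.2% of all pairs of a gene and a class passed 2-fold on at least 1 day. The counts that follow stand without the share of all genes under the same setting, and a lower minimum tests more members. With a minimum of 20 UMIs they were 13 in microglia-like, 13 in astrocyte-like, 8 in oligodendrocyte-like, 13 in OPC-like, 14 in endothelial-like, 22 in fibroblast-like, 19 in glutamatergic neuron-like and 13 in striatal projection neuron-like. With a minimum of 1 UMI they were 14 in microglia-like, 23 in astrocyte-like, 18 in oligodendrocyte-like, 18 in OPC-like, 15 in endothelial-like, 11 in mural-like, 28 in fibroblast-like, 24 in glutamatergic neuron-like, 21 in GABAergic interneuron-like and 29 in striatal projection neuron-like. With nuclei thinned to 1000 UMIs they were 2 in microglia-like, 0 in astrocyte-like, 2 in OPC-like, 2 in endothelial-like, 1 in mural-like, 1 in fibroblast-like, 3 in glutamatergic neuron-like, 0 in GABAergic interneuron-like and 3 in striatal projection neuron-like. At 1.5-fold they were 14 in astrocyte-like, 5 in oligodendrocyte-like, 12 in OPC-like, 6 in mural-like, 29 in glutamatergic neuron-like, 17 in GABAergic interneuron-like, 15 in striatal projection neuron-like and 37 over all nuclei. With the mean of the nuclei's CPM they were 5 in astrocyte-like. With doublets kept they were 4 in oligodendrocyte-like. With merged clusters they were 3 in endothelial-like. Related genes past 2-fold numbered 61 of 299 pairs as reported, 115 at 20 UMIs, 139 at 1 UMI, 24 with thinned nuclei and 157 at 1.5-fold. The median log2 ratio of the integrins over all nuclei at day 1 moved to -0.26 with thinned nuclei. The ratios that turned direction were those of Col1a2 in fibroblast-like nuclei at day 3 (log2 ratio -0.26 when thinned), Col4a2 in endothelial-like nuclei at day 3 (-0.13 when thinned) and in astrocyte-like nuclei at day 1 (-0.18 with merged clusters), Itgb1 in OPC-like nuclei at day 1 (-0.04 when thinned) and Itga5 in microglia-like nuclei at day 3 (-0.30 without the macrophage-like part). Thinned counts are over the 2 to 20 members of a class that kept 40 UMIs. Thinning and low UMI minimums leave fewer molecules per gene by construction, and for the other changes the cause was not tested.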
